A study of Homo sapiens with 4 samples.

Results

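ASH1L occupancy was compared between MV4;11 leukemia cells grown with the ASH1L inhibitor AS-99 and with its vehicle. The members were all peaks on chromosomes 1 to 22 and X in the 2 ASH1L peak lists, 3073 in the DMSO library and 1812 in the AS-99 library, or 4885 of the 6948 peaks listed in the 4 libraries of the series. MV4;11 is an established human acute leukemia line with a rearranged MLL1 gene, and the cells were cultured for 4 days, either in 5 µM AS-99 or in 0.25% DMSO as the vehicle. Occupancy was measured by CUT&RUN, in which an antibody bound to its target recruits a nuclease and the DNA fragments it releases are sequenced. There was a single library per treatment and antibody, so no difference has a replicate check, no p-value is given, and the intervals given hold only the error of counting or the spread across peaks.

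ASH1L is a trithorax-group histone methyltransferase whose SET domain dimethylates histone H3 to give H3K36me2, a mark found over transcribed genes and broad intergenic stretches. It is known for keeping HOX genes expressed, on which leukemias with MLL1 fusions depend. AS-99 binds the SET domain and blocks the methyltransferase activity. The comparison addresses where ASH1L was found on the genome, gene by gene and by class of gene, when that activity was inhibited.

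A DMSO peak was called kept when an AS-99 ASH1L peak overlapped it by at least 1 bp, and lost otherwise. An AS-99 peak without a DMSO counterpart was called new. A lost peak is one that was not listed with AS-99, which leaves it below the calling threshold and does not show that ASH1L was absent. Of the DMSO peaks 2690 were lost, or 87.5% (95% Clopper-Pearson interval 86.3 to 88.7), and 383 were kept, or 12.5% (11.3 to 13.7). Of the AS-99 peaks 1429 were new, or 78.9% (76.9 to 80.7), and the other 383 each paired with 1 kept DMSO peak. Most positions were therefore listed with 1 treatment alone, in either direction.

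Summit sequences are shown for each class, because the classes differed in base composition and in their share of promoters. They are named promoters of high pileup, 2 lost, 2 kept and 1 new, whose 300 bases around the summit met no exon of a protein-coding gene, followed by the kept peak of highest pileup. All are read from the plus strand of GRCh37, which shares its coordinates with hg19. Capitals mark a GC box (GGGCGG) or an ETS motif (CCGGAAGT) on either strand. The lost promoters are CIC, in an intron at chr19:42772850-42773149, and GSK3A, upstream of its start at chr19:42747124-42747423.
CIC, lost: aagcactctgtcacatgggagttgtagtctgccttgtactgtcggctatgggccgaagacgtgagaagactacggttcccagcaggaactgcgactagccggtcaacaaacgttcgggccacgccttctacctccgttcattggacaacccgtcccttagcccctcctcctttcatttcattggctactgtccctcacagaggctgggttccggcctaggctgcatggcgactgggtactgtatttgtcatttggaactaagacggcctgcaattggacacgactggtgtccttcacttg
GSK3A, lost: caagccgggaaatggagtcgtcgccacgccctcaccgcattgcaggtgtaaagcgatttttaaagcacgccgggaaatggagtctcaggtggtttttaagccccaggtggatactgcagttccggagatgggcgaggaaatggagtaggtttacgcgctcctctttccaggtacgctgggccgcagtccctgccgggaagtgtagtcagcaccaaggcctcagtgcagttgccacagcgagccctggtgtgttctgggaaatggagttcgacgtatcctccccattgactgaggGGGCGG
The kept promoters are COQ8A, upstream of its start at chr1:227127319-227127618, and ANXA2R, in an intron at chr5:43042743-43043042.
COQ8A, kept: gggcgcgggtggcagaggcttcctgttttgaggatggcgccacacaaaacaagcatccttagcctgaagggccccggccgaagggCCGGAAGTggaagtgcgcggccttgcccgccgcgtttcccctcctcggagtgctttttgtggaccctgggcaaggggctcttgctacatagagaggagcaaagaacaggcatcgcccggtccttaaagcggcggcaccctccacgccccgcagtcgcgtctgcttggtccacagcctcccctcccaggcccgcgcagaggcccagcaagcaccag
ANXA2R, kept: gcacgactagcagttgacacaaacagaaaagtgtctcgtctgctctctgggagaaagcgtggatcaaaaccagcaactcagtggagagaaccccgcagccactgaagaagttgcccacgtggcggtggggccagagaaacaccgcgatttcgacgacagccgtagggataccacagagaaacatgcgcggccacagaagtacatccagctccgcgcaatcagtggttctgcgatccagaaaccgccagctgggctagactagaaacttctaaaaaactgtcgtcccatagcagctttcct
The new promoter is TMX4, upstream of its start at chr20:8000799-8001098.
TMX4, new: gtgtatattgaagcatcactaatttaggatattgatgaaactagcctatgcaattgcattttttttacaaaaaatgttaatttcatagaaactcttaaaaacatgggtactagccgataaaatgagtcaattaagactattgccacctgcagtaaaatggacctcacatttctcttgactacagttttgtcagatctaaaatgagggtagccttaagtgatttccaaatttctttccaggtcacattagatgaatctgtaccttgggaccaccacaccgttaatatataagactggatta
The kept intergenic peak is at chr7:61968888-61969187, beside an assembly gap.
Kept intergenic peak: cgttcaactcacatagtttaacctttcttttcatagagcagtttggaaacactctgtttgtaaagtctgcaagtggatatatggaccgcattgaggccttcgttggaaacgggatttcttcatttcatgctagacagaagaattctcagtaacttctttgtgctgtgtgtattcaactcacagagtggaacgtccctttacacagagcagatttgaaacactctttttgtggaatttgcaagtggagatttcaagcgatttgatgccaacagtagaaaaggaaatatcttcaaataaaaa
The lost and kept promoter stretches had 54% to 65.7% GC and between 15 and 22 CpG dinucleotides. The new stretch, at TMX4, had 34.0% GC and 2 CpG dinucleotides, and it does not stand for its class, since new promoter peaks had a median of 61.0% GC. The kept intergenic stretch had 38.3% GC, and the 600 bases around its summit matched themselves best at an offset of 171 bases, the unit length of alpha satellite DNA, with 54.1% identity.

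The peaks were low, and the depth limits what the lists can show. After filtering, 19635489 fragments were left with DMSO and 15381860 with AS-99, a ratio of 0.783, and the fragment sizes in the file headers were 250 and 269 bp. The signal of a peak is its pileup, the number of fragments over the summit, which was scaled to fragments per 1000000 filtered fragments of the library (FPM), so that 1 fragment was worth 0.0509 FPM with DMSO and 0.0650 FPM with AS-99. Lost peaks had a median pileup of 16 fragments with quartiles of 14 and 19, kept peaks 20 fragments with DMSO (16 and 25) and 17 with AS-99 (15 and 21), and new peaks 14 (12 and 17). Scaled to the AS-99 depth, the median lost peak would hold 12.5 fragments, against 9 in the lowest listed AS-99 peak. After scaling, 4.54% of lost peaks (3.78 to 5.39) were below that lowest value and 22.3% (20.7 to 23.9) were at or above the median AS-99 peak. Peaks were called against a local background, so neither value is the threshold a given position had to pass, and the part of depth in the losses was not tested.

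**Figure D1:**
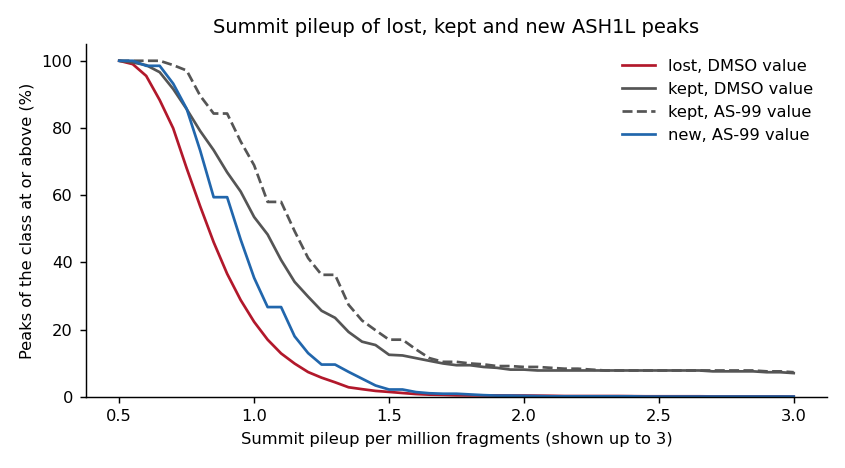
Share of peaks (y axis, %) whose summit pileup in FPM is at or above the value on the x axis, shown up to 3, for lost and kept peaks in the DMSO library and kept and new peaks in the AS-99 library. The kept peaks run to the right of the lost peaks, with medians of 1.02 and 0.815 in the DMSO library, and the new peaks have a median of 0.910 in the AS-99 library.

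Lost peaks lay at promoters more often than kept or new peaks. A promoter was the 1 kb on either side of the start of a protein-coding gene, and such windows cover 1.30% of the determined sequence. They held 693 of the 2690 lost peaks, or 25.8% (24.1 to 27.5), 75 of the 383 kept peaks, or 19.6% (15.7 to 23.9), and 201 of the 1429 new peaks, or 14.1% (12.3 to 16.0). The share of lost peaks was 6.18 percentage points above that of kept peaks (Newcombe interval 1.62 to 10.2), and the share of new peaks was 11.7 points below that of lost peaks (difference −11.7, −14.1 to −9.20). New peaks lay in introns more often, 40.8% (38.2 to 43.4) against 33.6% of lost peaks (31.8 to 35.4) and 30.5% of kept peaks in the AS-99 library (26.0 to 35.4). Kept peaks had the highest intergenic share, 45.7% (40.6 to 50.8), against 34.4% of lost peaks (32.6 to 36.2) and 38.7% of new peaks (36.2 to 41.3).

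**Figure D2:**
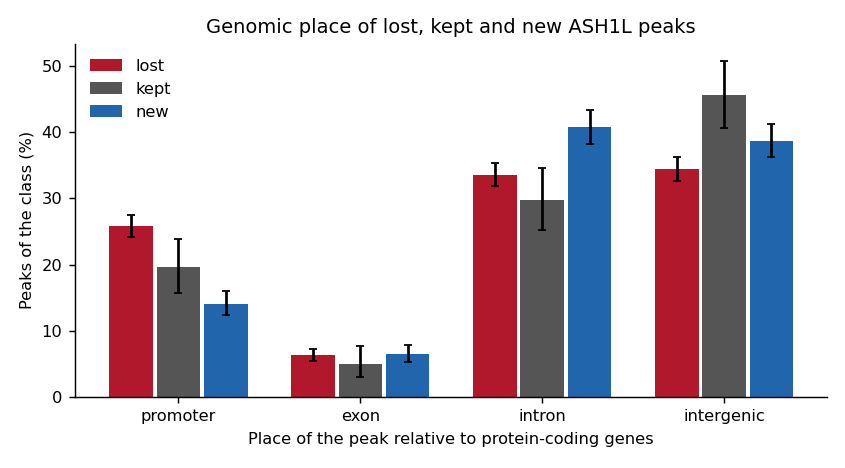
Share of lost, kept and new ASH1L peaks (y axis, %) in promoters, exons, introns and intergenic sequence (x axis), with kept peaks placed by their DMSO position and bars marking 95% Clopper-Pearson intervals. Promoters hold 25.8% of lost, 19.6% of kept and 14.1% of new peaks, introns 33.6%, 29.8% and 40.8%.

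Base composition also differed, mainly for new peaks. In the 300 bases around the summit the median GC content was 54% in lost, 52% in kept and 47% in new peaks, against 40% in windows taken every 30 kb along the genome. The difference of lost minus kept was 2.00 points (0.205 to 4.11), and 0.667 points (−0.824 to 2.16) without peaks within 500 kb of an assembly gap of at least 50 kb. Among peaks with 60% GC or more, 54.7% of lost and 50.5% of new peaks were at promoters, a difference of −4.20 points with an interval of −11.7 to 3.29. From 50% to 60% GC the shares were 21.5% and 14.6% (difference −6.92, −11.3 to −2.15), and from 40% to 50% GC the order turned, with 4.35% of lost and 7.37% of new peaks (difference 3.01, 0.333 to 6.07). Between lost and kept peaks the interval of the promoter difference included 0 in each of the 4 GC classes. It also included 0 when those gap-near peaks were left out, where the difference was 4.53 points (−0.499 to 8.99). The part of base composition in the promoter loss was not tested beyond these classes.

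At promoters the summit lay mostly downstream of the gene start in each class. The median position was 133 bp past the start in lost, 169 bp in kept and 170 bp in new promoter peaks, and 64.5%, 70.7% and 66.2% of the summits were downstream. The start used is the upstream end of the whole annotated gene, so a peak at the start of a shorter transcript can count as downstream. Promoters with a lost peak were as rich in GC as those with a kept peak, with a median of 63.7% in both, and those with a new peak had 61.0%, while all protein-coding promoters had 62.7% in the 300 bases around the start. The GC box, the element bound by SP1 and related factors, was found in 60% of lost promoter peaks and in 49.3% of both kept and new ones, against 54.1% of all promoters. Its share was 10.8 points higher in lost than in new promoter peaks (2.98 to 18.5), and 10.7 points higher than in kept ones with an interval that included 0 (−0.972 to 22.3). The TATA box (TATAAA on either strand) had the opposite order, 4.04% of lost against 7.96% of new promoter peaks (difference −3.92, −8.66 to −0.452), with 9.24% over all promoters. For every motif the windows of all promoters are centred on the gene start and those of peaks on the summit, so they cover different positions. The ETS motif was in 6.64% of lost, 8% of kept and 3.48% of new promoter peaks, against 5.13% of all promoters, and both intervals for differences from lost peaks included 0. RUNX sites (TGTGGT on either strand) were in 10.2%, 17.3% and 13.4%, against 11.6%, again with intervals that included 0. Bidirectional or crowded promoters were less frequent among new peaks: 21.4% of lost and 21.3% of kept promoter peaks had more than 1 gene start in the window, against 11.9% of new ones, 9.42 points fewer than lost (3.46 to 14.4).

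By gene, 936 of 20098 protein-coding genes had a DMSO peak over the promoter, or 4.66%, and 315 had an AS-99 peak, or 1.57%. Of the 936, 841 were lost, 89.9% (87.7 to 91.7), and 95 were kept, while 220 genes had a promoter peak only with AS-99. The share of 89.9% is the background against which the promoter counts of each gene group below are read. It does not hold for the gene lists further below, which count peaks in a gene or within 5 kb of it. There 2490 protein-coding genes had a DMSO peak, and 2000 of them had none with AS-99.

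The lost promoters of highest pileup included those of transcriptional regulators, signalling genes and nucleic acid enzymes. DBP, a clock-controlled transcription factor, led with 40 fragments in the DMSO library, or 2.04 FPM (exact Poisson interval 1.46 to 2.77), from a summit 828 bp upstream of its start. CIC, which encodes the repressor capicua, followed with 38 fragments (1.94 FPM, 1.37 to 2.66). CYTH2, an exchange factor for ARF proteins, and GSK3A, a glycogen synthase kinase, had 32 fragments each. All of these are on chromosome 19, as were 7 of the 12 lost promoters of highest pileup. That chromosome held 14.1% of all DMSO promoter peaks. ZNF524, a zinc finger gene, and ICAM1, which encodes a leukocyte adhesion molecule, had 31 fragments each, both upstream of the start. RRM2B, a subunit of ribonucleotide reductase on chromosome 8, also had 31. ALAD, an enzyme of heme synthesis, TREX1, a DNA exonuclease, and NBPF1, of a multicopy gene family, had 30 each. The peak at the divergent pair PARP9 and DTX3L, partners in ADP-ribosylation and ubiquitylation, had 29, as did that at PLEKHG2. None of these 12 promoters had a listed ASH1L peak with AS-99, and 1 of them, at PARP9 and DTX3L, overlapped a DMSO H3K36me2 peak. Reads of NBPF1 may be shared with near-identical copies of the gene.

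Of the 12 kept promoters of highest DMSO pileup, 9 were lower in FPM with AS-99 and 3 were higher, SIGLEC10, PGGT1B and VPS29; they were chosen by their DMSO value. MANBA, the lysosomal beta-mannosidase, had 34 fragments with DMSO and 23 with AS-99, or 1.73 and 1.5 FPM. TRIM41, a ubiquitin ligase, had 33 and 20 fragments (1.68 and 1.30 FPM). SIGLEC10, an inhibitory sialic acid receptor of leukocytes, had 31 and 30 (1.58 and 1.95 FPM). In FPM, MANBA and TRIM41 were thus lower with AS-99 and SIGLEC10 higher. SIRPB2, of the signal-regulatory protein family, had 31 and 16 fragments, and the shared window of MRPL54, a mitochondrial ribosomal protein gene, and APBA3 had 31 and 24. PGGT1B, a subunit of a protein prenyltransferase, had 29 and 25, and the window of BBIP1 and SHOC2 had 29 and 17. COQ8A, needed for coenzyme Q synthesis, had 28 and 16 fragments, VPS29, a retromer subunit, 27 and 27, and EMP3, a membrane protein gene, 27 and 14. CRH, the corticotropin-releasing hormone gene, had 26 and 14, and ANXA2R 26 and 18. Of these 12 windows, 4 held more than 1 gene start, so the peak cannot be assigned to 1 of the genes.

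The new promoter of highest pileup was that of ASH2L, a core subunit of the MLL methyltransferase complexes, with 30 fragments in the AS-99 library, or 1.95 FPM (1.32 to 2.78), from a summit 451 bp upstream of its start. ZNF460 had 27 fragments and ENSG00000271793, a gene without a symbol, 26. The window of SPATC1 and PARP10, ZHX2, a zinc finger and homeobox repressor, TRMT12, a transfer RNA modifying enzyme, and DOK2, an adaptor of hematopoietic receptor signalling, had 23 each. SCIMP, an adaptor of antigen-presenting cells, ICE2, a subunit of the little elongation complex, TMX4 and CSPP1, a centrosomal protein gene, had 22 each. Of the 12 new promoters, 6 were on chromosome 8 (ASH2L, SPATC1 with PARP10, ZHX2, TRMT12, DOK2 and CSPP1), which held 5.82% of all AS-99 promoter peaks and 4.17% of DMSO ones.

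Gene families, grouped by symbol, differed in how many promoters had a DMSO peak, and more than 50% of those peaks were lost in each family with 3 or more of them. Splicing factors and hnRNPs had a DMSO promoter peak at 14 of 87 genes, or 16.1% (9.09 to 25.5), against 4.66% of all protein-coding genes, and 13 of the 14 were lost. Among the lost ones SF3B3 had 27 fragments, HNRNPA1 26, SNRPA 25 and PRPF31 23, HNRNPUL2 and its readthrough gene shared a single peak, and LSM6 was kept with 16 fragments (DMSO) and 12 (AS-99). SF3B2 was the 1 new promoter of the group, with 12 fragments. The 13 losses of 14 are close to the background of 89.9%.

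Ribosomal, translation, ubiquitin and respiratory genes had 4 to 8 promoters with a DMSO peak per family. For each of these families the interval of the lost share included the background of 89.9%. Of 84 cytosolic ribosomal protein genes 8 had a DMSO promoter peak and 7 lost it, among them RPS19 with 26 fragments and RPL30 with 21. RPS29 was kept at 18 fragments in both libraries (0.917 and 1.17 FPM), and RPS15 was new with 17. Of 5 mitochondrial ribosomal protein genes with a DMSO peak, MRPL44, MRPL53 and MRPS23 lost it (60%), and MRPL54 and MRPS17 kept it. All 4 translation initiation genes with a DMSO peak, EIF4G2, EIF1AD, EIF5A and EIF2B1, lost it, at 13 to 22 fragments, and EIF4EBP1, an inhibitor of cap-dependent translation, was new with 17. All 4 transfer RNA synthetase genes with a DMSO peak, among them YARS2, LARS1 and NARS1, and all 5 genes of ubiquitin-conjugating enzymes, led by UBE2G1 with 23 fragments and UBE2B with 20, were lost. Of 5 genes of respiratory complex I, NDUFA11, NDUFB7, NDUFAF4 and NDUFB6 were lost and NDUFB9 was kept with 20 fragments in each library.

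Zinc finger genes of the ZNF series formed the largest family. A DMSO promoter peak lay at 49 of 515, or 9.51% (7.12 to 12.4), of which 42 were lost, 85.7% (72.8 to 94.1), and 7 kept, and 15 more had one only with AS-99. Their peaks were in the same pileup range as others, with ZNF524 at 31 and ZNF230 at 25 fragments among the lost, ZNF780A at 23 and 21 and ZNF616 at 23 and 16 among the kept, and ZNF460 at 27 and ZNF570 at 20 among the new. Most of the ZNF genes are paralogs in clusters, so reads can be shared between copies.

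Histone genes were the family of 5 or more DMSO promoters, beside the mitochondrial ribosomal protein genes, with the lowest lost share. Of 8 histone genes with a DMSO promoter peak 5 were lost, 62.5% (24.5 to 91.5), an interval that includes the background. H1-4 was lost with 26 fragments, H2AC12 and H2BC12 were lost with a shared peak of 23, and H4C11 and HIST1H4B were lost with 21 each. H2BC5 was kept with 26 and 20 fragments, H3C1 and H4C1 were kept with a shared peak of 25 and 16, and H4C12 was new with 19. All 3 proteasome, 3 RNA helicase, 3 RNA polymerase and 2 mediator genes with a DMSO promoter peak lost it, as did 9 of 10 solute carrier genes, of 373 in all. The intervals of these lost shares included the background as well. Of 39 HOX genes, HOXB9 had a DMSO promoter peak, which was lost, and no other HOX promoter held a peak in either library. Families known mainly from other tissues had few peaks: olfactory receptor genes had 2 of 415 (OR52N2 kept, OR6C4 lost), and keratins, protocadherins and potassium channels had 0 of 55, 65 and 95, which allows shares of up to 6.49%, 5.52% and 3.81%.

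**Figure D3:**
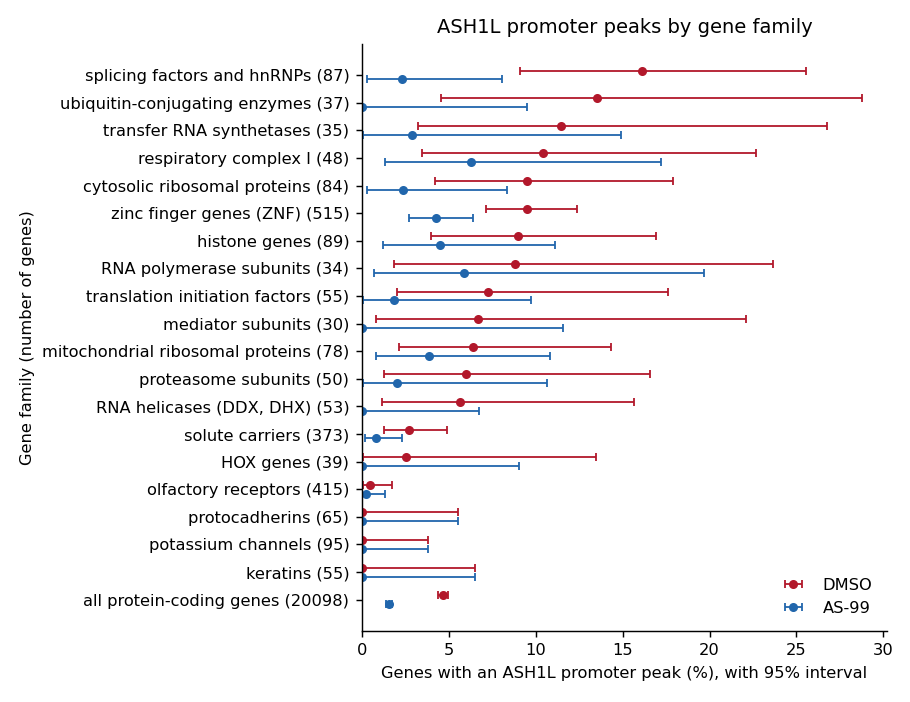
Share of the genes of each family (y axis, number of genes in brackets) with an ASH1L promoter peak (x axis, %) in the DMSO and the AS-99 library, with 95% Clopper-Pearson intervals. Splicing factors and hnRNPs have the highest DMSO share, 16.1%, and 2.30% with AS-99, against 4.66% and 1.57% of all protein-coding genes.

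Genes of the MLL fusion programme, like protein-coding genes as a whole, had a DMSO peak more often than an AS-99 peak. Peaks were counted in a gene or within 5 kb of it. By this count 10 of 35 genes (28.6%) had a DMSO peak and 3 (8.57%) an AS-99 peak. Of all protein-coding genes 12.4% and 6.60% did. Of the 10, 8 had a DMSO peak alone, close to the 2000 of 2490 over all protein-coding genes. No peak was listed for 24 of the 35. Windows of a gene with 5 kb on either side differ in length with the gene, so the counts are descriptions of the lists. MYC, the proliferation-driving transcription factor, had a promoter peak of 25 fragments with DMSO (chromosome 8, 128747963 to 128748366) and none with AS-99. FLT3, the receptor kinase, lost an intronic peak of 21 fragments. LMO2, a bridging factor of hematopoietic transcription complexes, lost a peak of 23 fragments lying 1935 bp upstream of its start. MBNL1 and ARID1B lost intronic peaks of 16 fragments each, BCL2, the anti-apoptotic gene, 1 of 14, and the HOXA cluster 1 of 15 in an intron of HOXA3, which is also within 5 kb of HOXA5. HOXA13, at the other end of that cluster, had a new peak of 13 fragments 1239 bp upstream of its start. CDK6, a cell cycle kinase, had a lost intronic peak of 12 fragments and a new one of 19.

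RUNX1, a transcription factor of blood stem cells, had more DMSO peaks in its annotated span than any other gene. In that span of 1217 kb it had 6, none within 1 kb of the annotated gene start. The count is not scaled to length, and ERCC1 had 4 in a span of 71.5 kb. The starts of other RUNX1 transcripts were not counted as promoters here, so a peak called exonic or intronic can lie at one of them. Of the 6, 5 with 14, 23, 21, 18 and 16 fragments were lost, that of 23 fragments in an exon. The sixth (chromosome 21, 36238088 to 36238451) was kept, with 26 fragments with DMSO and 16 with AS-99, and 2 new intronic peaks had 16 and 15. FLI1, an ETS factor of the blood lineages, lost 4 intronic peaks of 11 to 16 fragments and had 1 new one of 13. Of all genes, 151 had lost and new peaks and no kept one. Of lost peaks, 1.41% had an AS-99 peak within 1 kb and 3.79% within 10 kb, and the median distance to the nearest was 310 kb. Of new peaks, 2.45% had a DMSO peak within 1 kb and 6.51% within 10 kb, with a median of 175 kb. Overlapping peaks cannot enter these shares, and no share for unrelated positions was computed.

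Myeloid differentiation genes were the 1 list of the 8 with more AS-99 than DMSO genes, 5 against 3 of 27. These are 18.5% and 11.1%, where all protein-coding genes had 6.60% and 12.4%. ITGAX, the integrin CD11c, had a new promoter peak of 21 fragments (1.37 FPM), 275 bp upstream of its start. ITGAM, the integrin CD11b, had a new intronic peak of 17 fragments, CD86, a costimulatory receptor, 1 of 19, and CSF1R, the receptor of macrophage growth factor, 1 of 13. None of these 4 had a listed peak with DMSO. In the other direction CD68, a macrophage marker, lost a promoter peak of 21 fragments and MPO, the granule peroxidase, a peak of 19 fragments upstream of its start. The kept peak in the window of ELANE lies at the promoter of its neighbour CFD, with 17 and 14 fragments. The counts of 4 genes with AS-99 alone and 2 with DMSO alone are small.

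Genes of the MLL and elongation complexes had peaks in 8 of 25 with DMSO and 5 with AS-99. Both shares were above the 12.4% and 6.60% of all protein-coding genes. Of the 8, 6 had a DMSO peak alone, near the 2000 of 2490 over all protein-coding genes. CCNT1, the cyclin of the elongation kinase P-TEFb, lost a promoter peak of 24 fragments, and CDK9, its kinase, a peak of 19 upstream of the gene. DOT1L, the H3K79 methyltransferase, lost 1 of 28 fragments in an intron, MLLT1 1 of 19 and AFF4 1 of 17. ASH2L had its new promoter peak and an intronic peak that was kept at 27 and 26 fragments. KAT7, an acetyltransferase, had a new promoter peak of 20 fragments, and ELL had a lost intronic peak of 19 and a new one of 13. The peaks in the windows of AFF1 and EAF1 lie at the promoter of a gene without a symbol and in an exon of METTL6, and KMT2C had a new exonic peak of 12.

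Among 21 genes of H3K36 methylation 3 had a DMSO peak and 1 an AS-99 peak, none of them at a promoter. Their shares of 14.3% and 4.76% are near the 12.4% and 6.60% of all protein-coding genes. The demethylase genes KDM4B (17 and 21 fragments) and KDM4C (16 and 11) lost 2 peaks each and PHF19, which encodes a reader of the mark, 1 of 15, while KDM2A, another demethylase gene, had a new intronic peak of 13. Polycomb genes had peaks in 6 of 27 with DMSO and 2 with AS-99, or 22.2% and 7.41%. Of the 6, 5 had a DMSO peak alone, near the share of all protein-coding genes given above. The promoters of EZH1 (14 fragments) and JARID2 (15) were lost and that of PCGF6 was kept (19 and 13). EED, PHC2 and PHC3 lost peaks of 12 or 13 fragments, and PCGF5 had a new one of 14. Of 26 hematopoietic transcription factor genes, 4 had a DMSO peak (RUNX1, MYC, FLI1 and LMO2), or 15.4%. With AS-99 3 had a peak, or 11.5%, where IKZF1 joined with a new intronic peak of 14 fragments. Several genes stand in more than 1 list.

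Apoptosis genes had DMSO peaks in 8 of 23 and AS-99 peaks in 3. These are 34.8% and 13.0%, where all protein-coding genes had 12.4% and 6.60%. Of the 8, 7 had a DMSO peak alone, against 2000 of 2490 over all protein-coding genes. CASP9 lost a promoter peak of 15 fragments shared with DNAJC16. BCL2L1, BAK1 and BIRC5 lost peaks of 14, 18 and 22 fragments outside their promoters. BBC3, which encodes the pro-apoptotic PUMA, kept a peak inside the gene at 22 and 19 fragments, and BIRC2 (promoter, 13) and BID (intron, 16) were new. Of 29 cell cycle and replication genes, 3 had a DMSO peak, or 10.3%, near the share of all protein-coding genes. MCM6, a subunit of the replicative helicase, lost a promoter peak of 14 fragments, RB1 kept an intronic peak at 18 and 19 fragments, and CDK6 is described above.

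Whether a peak was kept went with its height. Of the DMSO peaks with 10 to 14 fragments, 4.02% at promoters and 6.56% elsewhere were kept, and of those with 21 or more 23.6% (17.2 to 31.0) and 30.5% (26.4 to 34.8). Over all heights 9.77% of promoter peaks were kept against 13.4% elsewhere, a difference of −3.60 points (−5.99 to −0.937). In the classes between, the shares were 7.34% and 7.36% at 15 or 16 fragments and 7.23% and 12.3% at 17 to 20. Promoter peaks were thus kept at a lower share at 10 to 14, at 17 to 20 and at 21 or more fragments, and at practically the same share at 15 or 16. The intervals within each class overlapped.

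Kept peaks were overlapped by H3K36me2 more often than lost ones, a readout that did not enter the split. A DMSO H3K36me2 peak overlapped 86 of 383 kept peaks, 22.5%, and 165 of 2690 lost peaks, 6.13%, a difference of 16.3 points (12.3 to 20.8). Of new peaks 4.13% overlapped a DMSO H3K36me2 peak and 3.57% an AS-99 one. The overlap was outside promoters: it held for 1 of 75 kept and 14 of 693 lost promoter peaks, and for 27.6% of kept and 7.56% of lost peaks elsewhere. Among peaks of 21 or more fragments the shares were 34.1% and 14.6% (difference 19.4, 12.1 to 27.1), and among those of 15 or 16 fragments 6.38% and 4.56% (1.82, −2.82 to 12.7). The difference was smaller without peaks beside assembly gaps, which made up 12.8% of kept and 6.88% of lost peaks. Away from gaps it was 10.8 points (7.02 to 15.2), and when regions with peaks in each of the 4 libraries, kept by construction, were left out, 5.47 points (2.32 to 9.43).

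**Figure D4:**
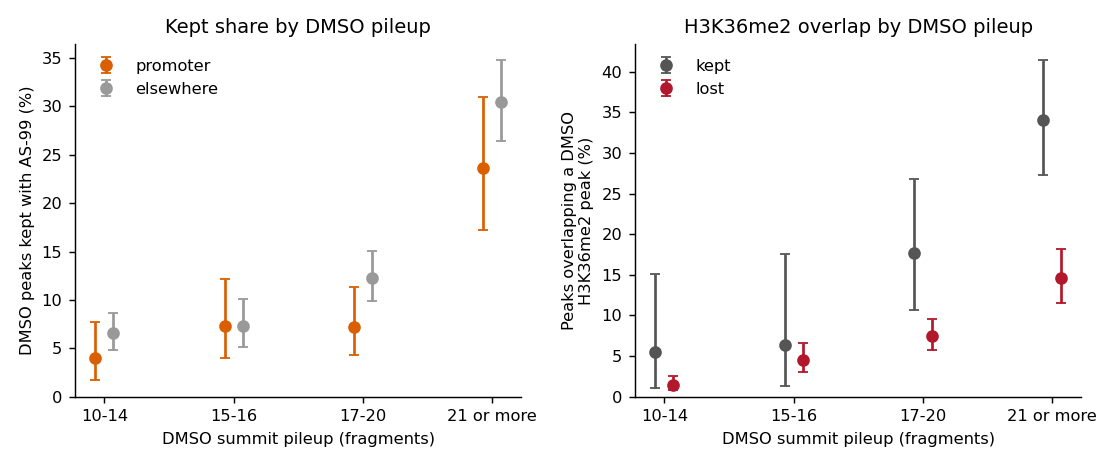
Left, share of DMSO ASH1L peaks kept with AS-99 (y axis, %) by DMSO summit pileup in fragments (x axis), at promoters and elsewhere; right, share of kept and lost peaks overlapping a DMSO H3K36me2 peak (y axis, %) in the same pileup classes. Points are shares with 95% Clopper-Pearson intervals, and both rise with pileup, to 23.6% and 30.5% kept on the left and 34.1% and 14.6% overlapped on the right.

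The strongest kept peaks were intergenic and beside gaps, led by the chromosome 7 peak shown above with 3598 DMSO fragments. Away from gaps the highest was in an intron of HFM1, a meiotic helicase gene (chromosome 1, 91852797 to 91853133), with 235 fragments. It overlapped H3K36me2 peaks of both treatments, as did the intergenic kept peaks that followed it on chromosomes X, 17 and 12. These positions were thus listed with both antibodies and both treatments, so their signal is not particular to ASH1L. Whether their reads are shared with repeated sequence was not tested. The highest lost peak was in an intron of PMF1, a kinetochore gene (chromosome 1, 156186276 to 156186573), with 93 fragments and a fold enrichment over the local background of 17.9. It was followed away from gaps by an intronic peak of SLCO5A1, an organic anion transporter gene, with 58 fragments, an intergenic one 193007 bp upstream of PTGER4, a prostaglandin receptor gene, with 48, and an exonic one of PPCDC, of coenzyme A synthesis, with 41. The highest new peaks away from gaps were in an intron of SLA, an adaptor of antigen receptor signalling that lies inside TG, with 37 fragments, and in an exon of RTN2, with 32. The lost PMF1 and SLCO5A1 peaks would hold more fragments at the AS-99 depth than any new peak away from gaps held.

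Where a peak was kept, its scaled height was slightly higher with AS-99. The median log2 ratio of pileup in FPM, AS-99 over DMSO, was 0.17 (order-statistic interval over pairs 0.13 to 0.23), with 270 of 383 pairs higher and 113 lower. A ratio of 1.5-fold or more upward was reached by 50 pairs, or 13.1%, and downward by 11, or 2.87%. At the 75 promoter pairs the median was 0.11, with an interval that included 0 (−0.017 to 0.23), and 46 were higher. Scaled to the summed pileup of the matched peaks instead of the fragments of the library, the median over all pairs was 0.00 (−0.04 to 0.06), so the direction depends on the scale. Fragment sizes also differed, 250 bp with DMSO and 269 bp with AS-99, and division by the number of fragments does not correct for that. The part of fragment size in the ratio was not tested. Only peaks listed in both libraries enter these pairs.

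**Figure D5:**
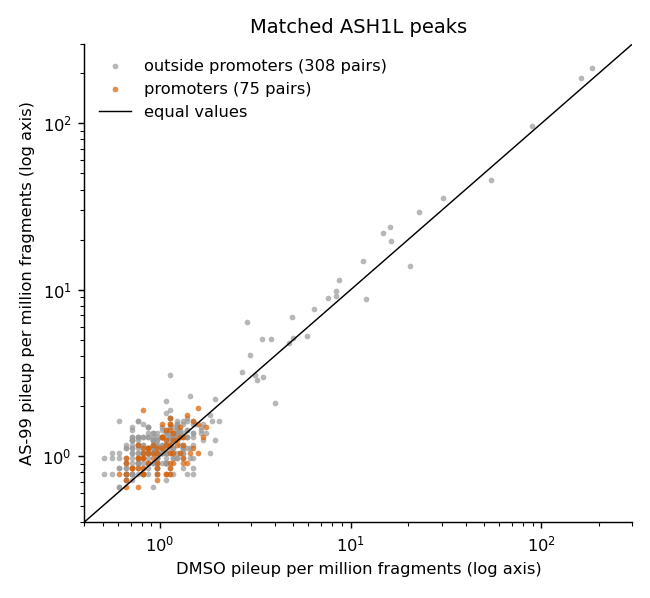
Summit pileup in FPM of each kept ASH1L peak with DMSO (x axis, log scale) and AS-99 (y axis, log scale), 75 promoter pairs and 308 others, with the line of equal values. Most pairs lie close to the line, 270 above and 113 below it, and the highest ones are outside promoters.

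The promoter with the largest rise was LILRA5, an activating immunoglobulin-like receptor of myeloid cells, with 16 fragments with DMSO and 29 with AS-99, a log2 ratio of 1.21 (conditional binomial interval 0.28 to 2.19). The next, MTIF2 (20 and 24 fragments), ZNF776 (15 and 18), MYO1F, a myosin of leukocytes (22 and 26), and GPAT3, of lipid synthesis (13 and 15), had log2 ratios of 0.56 to 0.62. The largest falls were at SIRPB2 (31 and 16, −0.60), EMP3 (27 and 14, −0.60), CRH (26 and 14, −0.54), ZNF428 (22 and 12, −0.52) and SETMAR, an H3K36 methyltransferase fused to a transposase (21 and 12, −0.46), which was tied with RAC1 (21 and 12) and COQ8A (28 and 16). Apart from LILRA5 the interval of each of these 10 promoters, the tied RAC1 and COQ8A not counted, included 0, and all 10 were picked as extremes of the 75.

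Kept shares ranged from 4.55% on chromosome 18 to 19.9% on chromosome 8. The low end rests on 2 of 44 peaks, with an interval of 0.555 to 15.5 that includes the 12.5% of all DMSO peaks. AS-99 peaks numbered 0.590 of DMSO peaks over all chromosomes, and the ratio was 0.737 on chromosome 8 (236 and 174 peaks) and 0.477 on chromosome 19 (281 and 134). Chromosome 8 kept 19.9% of its DMSO peaks (15.0 to 25.6), 8.07 points above the other chromosomes combined (3.31 to 13.7). Chromosome 19, with the highest density at 5.04 DMSO peaks per Mb against 1.08 over all, kept 17.8% (13.5 to 22.8), 5.87 points above the others (1.65 to 10.9). Shares were similar on chromosome 21, 19% (8.6 to 34.1), and chromosome 10, 18.4% (12.3 to 25.9). Peaks were called without a control library, so none of these shares is adjusted for chromosome copy number. Chromosome X had 27 DMSO and 8 AS-99 peaks.

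Starts of non-coding genes were also covered. Within 1 kb of a lncRNA start lay 287 lost, 40 kept and 106 new peaks, a kept share of 12.2% (8.88 to 16.3). At miRNA genes 16 peaks were lost and 7 kept, 30.4% (13.2 to 52.9), and 4 were new. That interval lies above the 12.5% of all DMSO peaks, on 23 peaks.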

How the data were processed

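The members and gene lists were chosen with earlier results of these data known. Reads were mapped by the authors with Bowtie2 to hg19. Per the file headers, the authors called peaks for each library with MACS 2.1.0.20150731 on paired-end fragments without a control library, at a q-value threshold of 0.01, with at most 2 duplicates and a 10 kb local background. The study's methods text also describes an earlier MACS version, merged mapped files and a slightly different dose, so it is not settled whether a library pools cultures. Antibody details for ASH1L are not given in the sources used here. The deposited signal is the pileup at each summit, not scaled by the authors. The deposited −log10 p-value and fold enrichment compare the pileup with local background. The deposited positions (1-based) and peak lengths are in bp. The 19 DMSO and 17 AS-99 peaks outside chromosomes 1 to 22 and X were left out.

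Pileup was divided by the fragments after filtering. Peaks were annotated against GENCODE release 44 mapped to GRCh37, as promoter when they overlapped 1 kb on either side of a protein-coding gene start, otherwise by the summit. Matched peaks were paired 1 to 1. Sequences were read from GRCh37, none from chromosome 8. Some genes and 1 sequence that these rules name are not reported here. Families were defined by symbol. Named promoters were the 12 lost and 12 kept with the highest DMSO pileup, the 12 new with the highest AS-99 pileup, and the 5 kept ones with the largest rise and the 5 with the largest fall; all list members with a peak within 5 kb were also named, and the strongest peaks by class and members of families were added after their values were seen. Shares have Clopper-Pearson, differences Newcombe and pileups exact Poisson 95% intervals. Fragments carry no molecular identifiers, so the intervals cover counting error only. The overlap count on a simulated list and the promoter count on the DMSO ASH1L list equalled those of bedtools. Alternatives changed the peak threshold, list length, overlap rule, promoter window, scale and regions.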

Additional observations from a re-analysis of the deposited data

Results flagged for a closer look

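Some of the ASH1L signal lay outside the chromosomes compared. The DMSO list held 19 ASH1L peaks and the AS-99 list 17 on other chromosomes or contigs, which entered none of the comparisons. No group had more than 1 library, so no sample could be compared with others of its group.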

How the results depend on the processing

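Of 68 alternative values, 55 fell inside the 95% interval given in the text, 13 fell outside and 0 changed sign against a reported interval that excluded 0. The 3 added alternatives were chosen after seeing the data.

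A −log10 p of at least 10 gave a promoter difference of lost minus kept peaks of 11.5 points, a lost share of promoter genes of 92.6% and an H3K36me2 difference of 33.4 points. Equal list lengths gave a kept share of 16.6%, a lost share of promoter genes of 85.7% and a median log2 ratio of 0.10. The kept share was 9.83% with a reciprocal overlap of 50%, 13.7% with summits within 1 kb and 11.1% without regions in all 4 lists, and the H3K36me2 difference was then 5.47 points, or 10.8 away from gaps. The median log2 ratio was 0.00 when scaled to the summed pileup of matched peaks. Between 50% and 60% GC the promoter share of new minus lost peaks was −6.92 points. The stricter and shorter lists hold fewer peaks, and regions in all 4 lists are kept by construction; for the others the cause was not tested.

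The interval of the promoter difference between lost and kept peaks included 0 without gap-near peaks (4.53), without regions in all 4 lists (3.74) and at 50% to 60% GC (3.48). That of the median GC difference, 2.00 points (0.205 to 4.11), included 0 under 4 alternatives, with a reciprocal overlap of 50%, without gap-near peaks, without regions in all 4 lists and without chromosome 8. Depth limits all of this: the median lost peak rests on 16 fragments. No paired analysis was possible because there was a single library per treatment.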
